A study of Rattus norvegicus with 18 samples.

Results

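The samples described here are rat ovarian follicles collected at 2 times under RU486, none of which had ruptured. They are the 3 samples titled RU-UF, unruptured follicles taken at 10:00 on the day of estrus (RU UF), and the 3 titled RU-PeF, follicles taken 12 hours earlier at 22:00 of proestrus (RU PeF). These are 6 of the 18 samples of the series, chosen by title alone, and all 31042 probe sets other than the manufacturer's controls were considered in them. The animals were Crl:CD(SD) rats, whose age the labels do not give. All 6 samples came from animals given RU486 once by mouth, at 100 mg/kg, at 10:00 of proestrus, so RU UF was taken 24 hours and RU PeF 12 hours after the dose. For comparison, follicles of animals given indomethacin (IM) by mouth at 4 mg/kg at 16:00 of proestrus were taken unruptured at 10:00 of estrus (IM UF) and at 22:00 of proestrus (IM PeF). Untreated animals gave post-ovulatory follicles, which had ruptured (control PoF), and peri-ovulatory follicles (control PeF) at the same clock times. Each of the 6 groups held 3 samples.

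Follicles were cut by laser from frozen sections, and RNA from whole follicles was hybridised to Affymetrix arrays. The labels state 3 animals for each treatment and time and 15 follicles for each phase, without tying a sample to an animal, so p-values reflect the spread of samples, which may be technical. Time of day, time after the dose and time since the LH surge moved together in this design and cannot be told apart. Because the samples are bulk RNA, fewer cells of a type and less RNA per cell cannot be told apart either.

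The surge of luteinizing hormone (LH) in the afternoon of proestrus starts ovulation in the rat. For some hours granulosa cells then make the progesterone receptor, the prostaglandin enzyme Ptgs2, EGF-like ligands and the proteins of the expanding cumulus matrix, after which they leave the cell cycle and turn into luteal cells that make progesterone. RU486 (mifepristone) is an antagonist of both the progesterone receptor and the glucocorticoid receptor. The effects of blocking either receptor cannot be told apart here. In mice without the progesterone receptor, follicles fail to rupture although their granulosa cells still luteinize.

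The median deposited signal was 16.9, 17.1 and 17.0 on the RU UF arrays, against 16.4, 16.9 and 19.6 on the RU PeF arrays. Between 63.2% and 73% of probe sets on an RU array lay above the highest of 27 unspiked control probe sets of that array, which is called background here. Log2 signals correlated at 0.965 to 0.971 within the RU groups (6 pairs) and at 0.844 to 0.855 between them (9 pairs). The log2 ratio of the 3' to the 5' Gapdh control averaged 3.07 ± 0.202 in RU UF and 2.78 ± 0.146 in RU PeF (SD, n = 3 each). Follicular markers were present in both groups: the summed signal of the 15 granulosa markers on the array was 19080 to 21670 in RU UF, against 19930 to 28540 in RU PeF. One of the 15 was at background in RU UF and none in RU PeF. Signals below are quantile-normalized over all 18 arrays and listed in the order of the replicate numbers. A log2 difference is RU UF minus RU PeF, with its SE, and p-values are limma's, adjusted over all probe sets tested.

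Of 18155 probe sets tested, 7068 (38.9%) differed between RU UF and RU PeF at an adjusted p under 0.05 in limma. Of these, 3456 (19%) were higher in RU UF and 3612 (19.9%) lower, and 4082 differed at least 2-fold. Differences of at least 8-fold were held by 134 probe sets that rose and 156 that fell. The 3 values of one group lay beyond all 3 of the other for 6939 of the called probe sets, and for 57.6% of all those tested. Taking 1 probe set for each of 10381 genes, 4445 passed (42.8%), 2217 higher (21.4%) and 2228 lower (21.5%), and the median log2 difference over genes was -0.01. The counts of gene lists below are read against these shares. Among 571 tested members of 31 lists, 162 rose and 147 fell.

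The largest falls in whole-follicle RNA included some genes of the ovulatory programme, and other genes of that programme fell by less. Adcyap1, which encodes the neuropeptide PACAP, had signals of 22.1, 10.8 and 3.23 in RU UF, against 7545, 7776 and 7363 in RU PeF (log2 difference -9.18 ± 0.46, adjusted p = 3.15e-10). This 580.1-fold fall was the largest by the naming rule, and 2 of the 3 RU UF arrays still lay above background, as they did for Ptgs2 and Pgr. Ptgs2, the inducible cyclooxygenase that commits arachidonate to prostaglandins, had 6.17, 18.9 and 6.88 in RU UF, against 6351, 5692 and 3115 in RU PeF (log2 difference -8.58 ± 0.82, adjusted p = 4.12e-07). The progesterone receptor Pgr, one target of the drug, had 11.2, 2.45 and 10.2 in RU UF, against 662, 496 and 347 in RU PeF (log2 difference -5.58 ± 0.73, adjusted p = 1.12e-05). For all 3 genes the lowest RU PeF array lay far above the highest RU UF array. Among 17 tested regulators induced by LH, 11 fell and 1 rose, with a median log2 difference of -1.27. They included Runx1, a transcription factor of the ovulating granulosa cell (log2 difference -2.19 ± 0.23, adjusted p = 1.23e-06). Crem, of the immediate early gene list, is a cAMP-responsive factor whose repressor form ends cAMP signalling. It fell (log2 difference -1.97 ± 0.30, adjusted p = 4.63e-05), with its other probe sets called lower too apart from 1 at -1.31. Errfi1, a feedback inhibitor of the EGF receptor counted in the glucocorticoid receptor list, fell too (log2 difference -3.18 ± 0.36, adjusted p = 2.33e-06). The EGF-like ligands Ereg (epiregulin) and Areg (amphiregulin) fell as well. Ereg had 179.7, 144 and 206 in RU UF, against 2998, 2322 and 1786 in RU PeF (log2 difference -3.71 ± 0.91, adjusted p = 0.00344), without overlap. Areg had 296, 319 and 267 in RU UF, against 2250.4, 1622 and 1484 in RU PeF (log2 difference -2.57 ± 0.81, adjusted p = 0.0178), and its adjusted p was 0.0585 without RU PeF replicate 1.

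**Figure D1:**
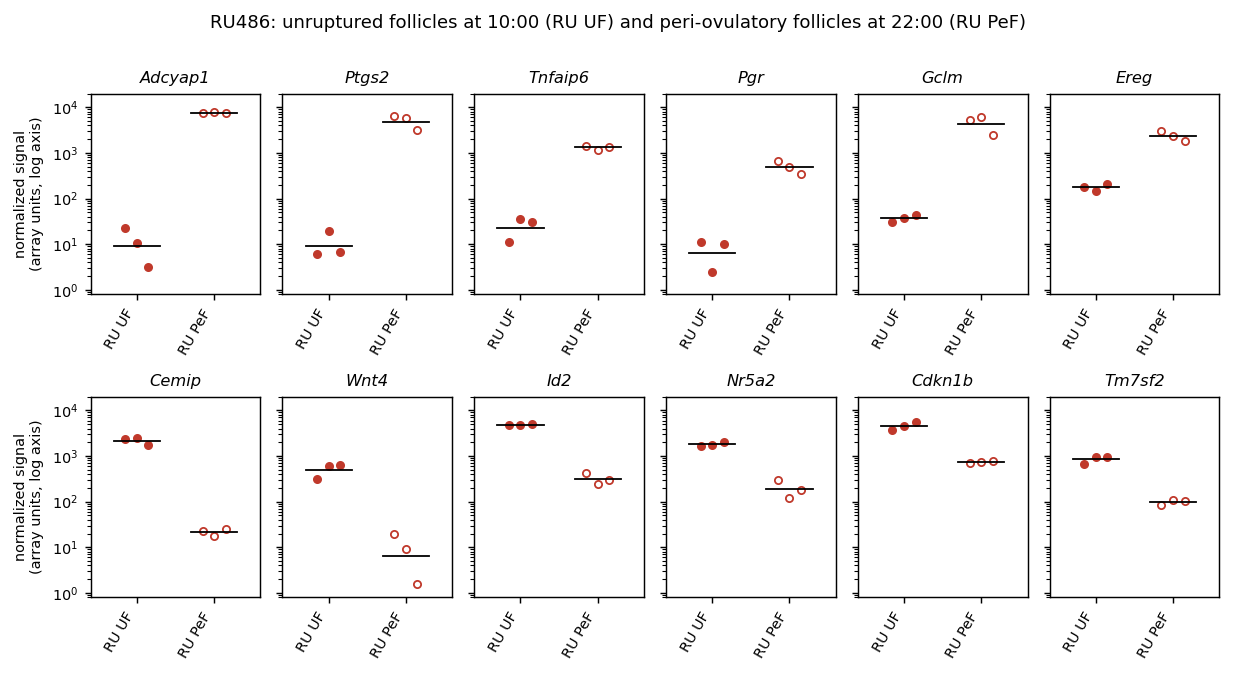
Quantile-normalized signal (log axis) of 12 named genes on each RU array, with RU UF to the left of RU PeF. Points are arrays (n = 3 per group) and bars the means of their log2 signals. Adcyap1, Ptgs2, Tnfaip6, Pgr, Gclm and Ereg lie lower in RU UF, and Cemip, Wnt4, Id2, Nr5a2, Cdkn1b and Tm7sf2 higher, and the groups do not overlap.

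Cumulus matrix genes moved the same way, with 5 of 10 lower and 1 higher and a median of -0.98. Tnfaip6, which transfers protein chains onto hyaluronan in the cumulus, had 11.1, 35.2 and 30.1 in RU UF, against 1450, 1153 and 1370 in RU PeF (log2 difference -5.65 ± 0.53, adjusted p = 2.87e-07). The link protein Hapln1, which holds hyaluronan to proteoglycans, fell too (log2 difference -2.84 ± 0.57, adjusted p = 0.000659). So did Vcan, the proteoglycan versican (log2 difference -1.26 ± 0.16, adjusted p = 9.12e-06), with 1 of its other probe sets at -0.68 and not called. The hyaluronan synthase Has2 had a log2 difference of -1.35 ± 0.49 (adjusted p = 0.0373), but its adjusted p was 0.0633 to 0.137 without RU PeF replicate 1 or 2 or RU UF replicate 1 or 3. The member that rose was Cemip, which is needed to break hyaluronan down. It had 2407, 2510.5 and 1724 in RU UF, against 22.8, 17.3 and 25.4 in RU PeF, an 88.6-fold difference (log2 difference 6.47 ± 0.31, adjusted p = 2.46e-10), and no array of one group came near the other.

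Of 16 tested members of a list holding Pgr and genes reported as its targets in the follicle, 8 fell and 2 rose, with a median of -0.43. Beside Pgr, Areg and Ereg, Sphk1, which makes sphingosine 1-phosphate, fell (log2 difference -1.83 ± 0.21, adjusted p = 2.59e-06). Adamts1, the versican-cleaving protease reported as a progesterone receptor target in mice, had 1416, 1012 and 1019 in RU UF, against 1593, 665 and 548 in RU PeF (log2 difference 0.44 ± 0.27, adjusted p = 0.212), with overlapping groups. Edn2, the contractile peptide endothelin 2, had 82.6, 65.9 and 117 in RU UF, against 92.1, 174 and 61.7 in RU PeF (log2 difference -0.21 ± 0.48, adjusted p = 0.77), and these groups overlapped too. Cxcr4, a chemokine receptor, had 355, 415 and 207 in RU UF, against 26, 24.2 and 23 in RU PeF, a rise of 3.52 ± 0.35 on the log2 scale (adjusted p = 6.04e-07). Its 2 other probe sets rose as well.

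In the prostaglandin pathway 6 of 13 members fell and 3 rose, at different steps. The phospholipase Pla2g4a, which frees arachidonate, fell alongside Ptgs2 (log2 difference -3.81 ± 0.46, adjusted p = 4.8e-06). The dehydrogenase Hpgd, which inactivates prostaglandins, also fell, with 533, 260.3 and 438 in RU UF, against 2178, 1998 and 1853 in RU PeF (log2 difference -2.34 ± 0.31, adjusted p = 1.21e-05). Ptges, the inducible prostaglandin E synthase, had 169, 161 and 131 in RU UF, against 6.36, 5.04 and 2.83 in RU PeF (adjusted p = 7.06e-07). All 3 RU PeF arrays were at background for this probe set, so its level was at least 20.8-fold higher in RU UF, while the other probe set of the gene had a log2 difference of 0.36 and was not called. Abcc4, a transporter that exports prostaglandins among other organic anions, had 552, 501 and 486 in RU UF, against 28.6, 24.5 and 38.3 in RU PeF (log2 difference 3.96 ± 0.33, adjusted p = 9.06e-08). Enzymes of release and of breakdown were thus lower in RU UF, while the terminal synthase and the exporter were higher.

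Genes of cholesterol synthesis and uptake were shifted upwards: 15 of 21 rose and none fell in limma, with a median of 0.90. At an unadjusted p under 0.05, 16 were higher and 0 lower. Tm7sf2, a sterol reductase, had 668, 969 and 949 in RU UF, against 84.9, 108 and 106 in RU PeF (log2 difference 3.06 ± 0.20, adjusted p = 7.16e-09). Hsd17b7, which acts in cholesterol synthesis as a ketoreductase and can also reduce estrone, had 1932, 2230.4 and 2198 in RU UF, against 340.1, 343 and 243 in RU PeF (log2 difference 2.78 ± 0.27, adjusted p = 4.99e-07). Lss (lanosterol synthase) rose (log2 difference 1.97 ± 0.24, adjusted p = 4.27e-06), with its other probe set at 0.40 and not called, and so did the sterol isomerase Ebp (log2 difference 1.58 ± 0.21, adjusted p = 1.37e-05). Stard4, a carrier of cholesterol within the cell, rose by the named probe set (log2 difference 1.52 ± 0.27, adjusted p = 0.000273), while its other probe sets stood at 0.91 and -0.86 and were not called.

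The steroid list itself was mixed, with 7 of 18 higher and 5 lower, or 3 lower without RU PeF replicate 1 or RU UF replicate 2. Star, which brings cholesterol into mitochondria, had 7470.1, 10427 and 9288 in RU UF, against 7068, 9288 and 8111 in RU PeF (log2 difference 0.15 ± 0.14, adjusted p = 0.442), with overlapping groups. Its other probe set was lower, at -0.83 with an adjusted p of 0.0407 in limma. Cyp11a1, which cleaves the cholesterol side chain to form pregnenolone, had a log2 difference of 0.41 ± 0.09 (adjusted p = 0.00192), a call that scaling each array to a common median ended (adjusted p = 0.173). Tspo, a protein of the outer mitochondrial membrane, rose (log2 difference 2.37 ± 0.24, adjusted p = 6.79e-07), and so did Hsd17b4, an enzyme of peroxisomal fatty acid oxidation (log2 difference 1.53 ± 0.25, adjusted p = 0.000103). Among the genes of androgen and estrogen synthesis, the theca enzyme Cyp17a1 had 35.3, 20.1 and 19.5 in RU UF, against 95.9, 181 and 42.2 in RU PeF (log2 difference -1.79 ± 0.58, adjusted p = 0.0215). Its adjusted p was 0.057 to 0.124 when RU PeF replicate 1 or 2 or RU UF replicate 2 or 3 was left out. Aromatase, Cyp19a1, fell by 2 probe sets, with log2 differences of -1.73 ± 0.49 (adjusted p = 0.00961) and -1.62 ± 0.58 (adjusted p = 0.0361), while the third stood at -0.17 ± 0.63 (adjusted p = 0.862). Enzymes that inactivate steroids fell too. The estrogen sulfotransferase Sult1e1 had 67.2, 38.5 and 105 in RU UF, against 2092, 2901 and 1584 in RU PeF (log2 difference -4.97 ± 0.49, adjusted p = 5.2e-07). Akr1c14, which reduces dihydrotestosterone, had 9.51, 15.8 and 23.7 in RU UF, against 594, 675 and 524 in RU PeF (log2 difference -5.01 ± 0.48, adjusted p = 3.93e-07). Akr1c3, whose older rat name is Akr1c18 and whose product inactivates progesterone in the rat, fell less (log2 difference -1.49 ± 0.34, adjusted p = 0.00184).

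Of 25 luteal genes 11 rose and 4 fell, with a median of 0.36. The 4 calls with the smallest adjusted p were Timp1, which fell, and Pcolce, Hsd17b7 and Nr5a2, which rose. Nr5a2, the nuclear receptor LRH-1 that luteal cells need, had 1698, 1762 and 1993 in RU UF, against 294, 121 and 179 in RU PeF (log2 difference 3.27 ± 0.34, adjusted p = 1.06e-06), and its 2 other probe sets rose by less. Cdkn1b, the cell cycle inhibitor p27 that accumulates as granulosa cells luteinize, had 3782, 4577 and 5656 in RU UF, against 690.0, 731 and 796 in RU PeF (log2 difference 2.64 ± 0.29, adjusted p = 1.46e-06). From other lists, Sgk1, a kinase induced by steroids and cAMP, rose (log2 difference 2.26 ± 0.15, adjusted p = 1.12e-08). So did Id2, an inhibitor of helix-loop-helix factors (log2 difference 3.96 ± 0.37, adjusted p = 3.47e-07). Sgk1 was counted in the glucocorticoid receptor list and Id2 in the gonadotropin, prolactin and inhibin list. Nr5a2, Cdkn1b, Sgk1 and Id2 each had their 3 RU UF arrays above their 3 RU PeF arrays.

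Receptors and hormones of the gonadotropin, prolactin and inhibin list gave 7 of 23 higher and 7 lower, but 4 higher without RU PeF replicate 3 or RU UF replicate 1 or 3. The prolactin receptor Prlr, through which prolactin maintains the rat corpus luteum, had 5289.6, 4951 and 5337 in RU UF, against 2872, 2358 and 1801 in RU PeF (log2 difference 1.17 ± 0.15, adjusted p = 1.04e-05), but its other probe sets, at -0.01 and 0.93, were not called. The LH receptor Lhcgr had 3634, 2880.3 and 2951 in RU UF, against 969, 1245 and 462 in RU PeF (adjusted p = 0.0241), and its adjusted p was 0.113 without RU PeF replicate 3, 0.0718 without RU UF replicate 1 and 0.0514 without RU UF replicate 3. The inhibin subunits parted. The alpha subunit Inha fell (log2 difference -1.37 ± 0.19, adjusted p = 1.87e-05), and so did the beta A subunit Inhba, with 1213, 688 and 680.5 in RU UF, against 9425, 7470.1 and 3731 in RU PeF (log2 difference -2.95 ± 0.71, adjusted p = 0.00319). The beta B subunit Inhbb had a log2 difference of 0.74 ± 0.16 (adjusted p = 0.0017), which was no longer called under median scaling (adjusted p = 0.0875).

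Coagulation and plasminogen control genes gave 8 lower and 1 higher of 16, with a median of -0.39. Serpinb2, the plasminogen activator inhibitor PAI-2, was at background on all RU UF arrays and had 236, 377 and 179 in RU PeF, so it was at least 35.5-fold lower in RU UF (adjusted p = 4.15e-06). Tfpi2, a serine protease inhibitor of the matrix, had 18.6, 12 and 14.2 in RU UF, against 309, 524 and 348 in RU PeF (log2 difference -4.44 ± 0.30, adjusted p = 1.06e-08). Tissue plasminogen activator, Plat, had 426, 298 and 344 in RU UF, against 1089.7, 4930.5 and 1305 in RU PeF (log2 difference -2.43 ± 0.45, adjusted p = 0.000335). Serpine2, a protease inhibitor of granulosa cells, also fell (log2 difference -3.45 ± 0.33, adjusted p = 3.27e-07), as did Procr, the endothelial protein C receptor (log2 difference -2.47 ± 0.40, adjusted p = 9.71e-05). F3, the tissue factor that triggers clotting, had a log2 difference of -1.13 ± 0.31 with an adjusted p of 0.00815, or 0.0576 without RU PeF replicate 1.

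Among matrix proteases and their inhibitors 9 of 26 fell and 6 rose, and the sign of the median followed the scaling, at 0.06 here, -0.02 under median scaling and -0.07 with signals as deposited. Timp1, the metalloproteinase inhibitor, had 958, 1170.3 and 1371 in RU UF, against 4469, 4973 and 6948 in RU PeF (log2 difference -2.21 ± 0.18, adjusted p = 8.38e-08). The lysosomal protease Ctsb fell (log2 difference -1.07 ± 0.14, adjusted p = 1.25e-05), whereas Mmp11 (stromelysin 3) rose, with 126, 95.1 and 69.4 in RU UF, against 7.57, 5.49 and 11.1 in RU PeF (log2 difference 3.15 ± 0.63, adjusted p = 0.000717), 2 of these RU PeF arrays lying above background. Structural matrix genes rose more often than they fell, 16 against 6 of 44, with a median of 0.28, and 3 fell without RU PeF replicate 2. Pcolce, which speeds the trimming of procollagen, had 696, 760.3 and 811 in RU UF, against 147, 174 and 143 in RU PeF (log2 difference 2.27 ± 0.21, adjusted p = 2.81e-07). The fibrillar collagen chains Col1a1 (log2 difference 1.29 ± 0.16, adjusted p = 5.13e-06) and Col1a2 (log2 difference 1.31 ± 0.20, adjusted p = 5.37e-05) and the collagen-binding protein Sparc (log2 difference 1.54 ± 0.24, adjusted p = 7.39e-05) rose too, without overlap between the groups.

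Of 25 immediate early genes 14 fell and 1 rose (2 without RU UF replicate 2), with a median of -0.81. Atf3, a stress-induced transcription factor, had 29.5, 8.6 and 21.2 in RU UF, against 82.5, 103 and 97.3 in RU PeF (log2 difference -2.21 ± 0.41, adjusted p = 0.000358). Jun, a component of AP-1, fell by the named probe set (log2 difference -1.04 ± 0.20, adjusted p = 0.000484), while its others stood at 0.22 and -0.45 and were not called. Ier2 fell as well (log2 difference -1.01 ± 0.19, adjusted p = 0.000457). Endoplasmic reticulum stress genes and chaperones gave 16 lower and 3 higher of 31, with a median of -0.58. Asns, the asparagine synthetase induced by amino acid shortage, had 36.8, 87.9 and 52.6 in RU UF, against 381, 644 and 291 in RU PeF (log2 difference -2.83 ± 0.38, adjusted p = 1.52e-05), and Hsp90b1, the chaperone GRP94, fell by less (log2 difference -0.97 ± 0.13, adjusted p = 1.1e-05). The members that rose included the mitochondrial chaperonins Hspd1 (log2 difference 1.31 ± 0.11, adjusted p = 7.43e-08) and Hspe1 (log2 difference 0.71 ± 0.09, adjusted p = 4.64e-06), which are not chaperones of the endoplasmic reticulum.

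Cytokines and chemokines gave 8 lower and 3 higher of 22, with a median of -0.39, and 1 higher without RU UF replicate 1 or 3. Cxcr4, given above, was among those that rose and had the smallest adjusted p of the list. Interleukin 6, Il6, was at background on all RU UF arrays and had 80.5, 100 and 33.5 in RU PeF, at least 9.11-fold lower in RU UF (adjusted p = 0.00512). Its signal-transducing receptor Il6st fell by 1 probe set (log2 difference -0.83 ± 0.19, adjusted p = 0.0022), with the other 3 between -0.65 and -0.19 and not called, and the interleukin 1 receptor Il1r1 fell too (log2 difference -1.47 ± 0.31, adjusted p = 0.000998). Tnfrsf12a, the receptor for TWEAK, which was counted in the Bcl2 family and apoptosis list, had a fall of similar size (log2 difference -1.17 ± 0.23, adjusted p = 0.00066). Interferon response and antigen presentation genes went the other way, with 10 of 24 higher and none lower in limma (1 lower without RU UF replicate 3) and a median of 0.89. At an unadjusted p under 0.05, 16 were higher and 1 lower. Ifi44, an interferon-induced gene, had 76.8, 69.7 and 123 in RU UF, against 16.4, 23.8 and 15.4 in RU PeF (log2 difference 2.08 ± 0.27, adjusted p = 1.1e-05). Stat2, which carries the type I interferon signal, rose (log2 difference 1.88 ± 0.27, adjusted p = 3.23e-05), as did the immunoproteasome subunit Psmb8 (log2 difference 1.47 ± 0.27, adjusted p = 0.000326) and Oas1a, a sensor of double-stranded RNA (log2 difference 2.83 ± 0.51, adjusted p = 0.000271), which was above background on 2 of 3 RU PeF arrays. Summed signals of the 25 leukocyte markers on the array, 5 of which were at background in both groups, were 405.7 to 618.2 in RU UF and 581.1 to 688.3 in RU PeF. Their part in these results was not tested.

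Cell cycle genes gave 19 lower and 2 higher of 43, with a median of -0.57. The mitotic genes Bub1b, of the spindle checkpoint (log2 difference -1.64 ± 0.28, adjusted p = 0.000171), and Ccnb1, cyclin B1 (log2 difference -0.91 ± 0.15, adjusted p = 0.000108), fell. Cdk1, the kinase that cyclin B1 activates, had a log2 difference of -0.76 ± 0.22 (adjusted p = 0.0123), or with an adjusted p of 0.0908 without RU PeF replicate 3 and 0.0534 without RU UF replicate 2. The 2 that rose were Cdkn1b, an inhibitor of the cycle, and Tk1, the thymidine kinase that salvages thymidine for DNA synthesis. Tk1 had 229, 208 and 208 in RU UF, against 46, 39.6 and 31.3 in RU PeF (log2 difference 2.39 ± 0.39, adjusted p = 0.000105), with its 2 other probe sets higher as well. The Bcl2 family and apoptosis list gave 4 higher and 4 lower of 19, or 2 and 3 without RU UF replicate 2. The survival factor Mcl1 fell (log2 difference -1.14 ± 0.14, adjusted p = 6.22e-06), while the death-promoting family member Bok (log2 difference 1.44 ± 0.33, adjusted p = 0.00189) and the initiator caspase Casp8 (log2 difference 0.80 ± 0.17, adjusted p = 0.00118) rose, the last by 1 of its 2 probe sets.

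Glutathione and oxidative stress genes gave 13 higher and 5 lower of 27. Gpx1, a glutathione peroxidase, had 3038, 2707 and 2793 in RU UF, against 655, 603 and 544 in RU PeF (log2 difference 2.24 ± 0.14, adjusted p = 4.32e-09). Mgst1, a microsomal glutathione transferase (log2 difference 3.09 ± 0.26, adjusted p = 9.06e-08), and Nfe2l2, the transcription factor NRF2 of the antioxidant response (log2 difference 1.22 ± 0.10, adjusted p = 8.95e-08), rose too. Gclm, the modifier subunit of the enzyme that starts glutathione synthesis, moved against them, with 29.8, 38 and 44.3 in RU UF, against 5163, 6229.7 and 2449 in RU PeF, a 107-fold fall (log2 difference -6.74 ± 0.39, adjusted p = 1.79e-09). Oxidative phosphorylation genes were called higher for 18 of 33 members and lower for 1, with a median of 0.35, but for 4 higher and 1 lower under median scaling. With any 1 RU array left out 11 to 14 were higher, the fewest without RU UF replicate 3, and 12 without RU UF replicate 1 or RU PeF replicate 1. They included the ATP synthase subunits Atp5f1c (log2 difference 1.21 ± 0.16, adjusted p = 1.2e-05) and Atp5po (log2 difference 0.82 ± 0.16, adjusted p = 0.00044) and the complex I subunit Ndufs8 (log2 difference 1.28 ± 0.21, adjusted p = 0.000112). The complex IV subunit Cox8a had a log2 difference of 0.50 ± 0.10 (adjusted p = 0.000602), and 0.135 as its adjusted p under median scaling.

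Of 40 hypoxia response and glycolysis genes 16 rose and 6 fell, with a median of 0.33. Bnip3, a mitochondrial protein induced by hypoxia, had 821, 811 and 1038 in RU UF, against 154, 90.5 and 123 in RU PeF (log2 difference 2.85 ± 0.34, adjusted p = 3.97e-06), and the glycolytic enzyme Pgam1 (log2 difference 0.84 ± 0.11, adjusted p = 1.1e-05) and the collagen hydroxylase P4ha2 (log2 difference 1.89 ± 0.21, adjusted p = 1.87e-06) also rose. The glucose transporter Slc2a3 fell (log2 difference -2.78 ± 0.32, adjusted p = 3.16e-06). Angiogenic factors and receptors gave 5 higher and 6 lower of 23, but 3 lower without RU PeF replicate 2 or 3 and 2 lower without RU UF replicate 2. Vegfa, the main endothelial growth factor, rose by 1 probe set (log2 difference 1.23 ± 0.19, adjusted p = 7.97e-05), with the other at 0.45 and not called. Vegfc, which acts mainly on lymphatic vessels, had 92.1, 98.1 and 99.1 in RU UF, against 1058, 726 and 930.3 in RU PeF (log2 difference -3.17 ± 0.21, adjusted p = 7.99e-09). Apln, the peptide apelin, rose (log2 difference 3.03 ± 0.53, adjusted p = 0.000198), and Pdgfa, a platelet-derived growth factor chain, fell (log2 difference -1.95 ± 0.27, adjusted p = 2.35e-05). Smad1, which relays BMP signals, fell too (log2 difference -1.02 ± 0.15, adjusted p = 3.67e-05). Tgfb1 had a log2 difference of -1.95 ± 0.60 (adjusted p = 0.0159), and the call was lost without RU PeF replicate 3 (0.0662) and without RU UF replicate 1 (0.0616). The VEGF receptor Kdr had a log2 difference of -0.62 ± 0.18 (adjusted p = 0.0102), and its adjusted p was 0.0572 without RU PeF replicate 2, 0.0685 without RU UF replicate 2 and 0.0595 under median scaling.

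The glucocorticoid receptor is the other receptor that RU486 blocks. Of 20 tested members of its list 8 rose and 2 fell (1 without RU PeF replicate 2 or RU UF replicate 1 or 2) between the times, with a median of 0.46. Errfi1, described above, was among those that fell. Mt1, a metallothionein that binds zinc and is induced by glucocorticoids and by metals, had 304, 211 and 312 in RU UF, against 26.7, 17.1 and 10.1 in RU PeF, a 13.8-fold rise (log2 difference 3.78 ± 0.28, adjusted p = 3.14e-08). Mt2A, the neighbouring metallothionein, had 2133, 1665 and 1792 in RU UF, against 257, 238 and 168 in RU PeF (log2 difference 3.07 ± 0.31, adjusted p = 6.95e-07). Fkbp5, a co-chaperone of the receptor and a common readout of its activity, had 1921, 2584 and 1917 in RU UF, against 726, 639 and 637 in RU PeF (log2 difference 1.67 ± 0.21, adjusted p = 5.72e-06), but its other probe set stood at -0.38 and was not called. Hsd11b1, which regenerates active glucocorticoid, rose as well (log2 difference 1.82 ± 0.21, adjusted p = 2.82e-06). Per1 and Klf9, both direct targets in other tissues, had log2 differences of -0.08 ± 0.20 (adjusted p = 0.782) and -0.12 ± 0.18 (adjusted p = 0.631). Klf15, a further target, had a log2 difference of 0.73 ± 0.22 (adjusted p = 0.0138), but its adjusted p was 0.0916 without RU PeF replicate 2, 0.0548 without RU PeF replicate 3 and 0.156 under median scaling.

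The promoters of both metallothioneins are shown because these genes rose together and share a known kind of metal response element. Of its core, only the forms TGCGCAC and TGCACAC were searched for. The windows are 300 bases around the annotated start (RefSeq, GRCr8, minus strand for both, read 5′ to 3′), at chr19:10832926-10833225 for Mt1 and chr19:10838659-10838958 for Mt2A. Capitals mark these forms on either strand, and other forms of the core were left unmarked and uncounted. The Mt1 window held 1 match to these forms and the Mt2A window 3, and 8.27% of 27457 genes had a match in such a window. A match describes letters, not binding.
Mt1: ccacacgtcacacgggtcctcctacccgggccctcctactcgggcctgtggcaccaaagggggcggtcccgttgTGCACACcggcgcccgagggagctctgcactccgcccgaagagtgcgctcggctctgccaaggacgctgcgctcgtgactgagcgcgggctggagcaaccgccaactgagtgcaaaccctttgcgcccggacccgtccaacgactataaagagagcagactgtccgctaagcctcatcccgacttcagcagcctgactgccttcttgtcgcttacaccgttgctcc
Mt2A: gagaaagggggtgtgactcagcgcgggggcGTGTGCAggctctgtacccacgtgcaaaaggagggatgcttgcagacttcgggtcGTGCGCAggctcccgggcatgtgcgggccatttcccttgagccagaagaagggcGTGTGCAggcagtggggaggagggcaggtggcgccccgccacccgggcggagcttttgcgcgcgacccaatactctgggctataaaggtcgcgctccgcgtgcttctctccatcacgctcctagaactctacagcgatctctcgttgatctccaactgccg

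The circadian clock list was measured in full, since the samples were taken 12 hours apart. In the clock, Bmal1 with Clock or Npas2 switches on the Per, Cry, Nr1d and PAR-domain genes, Per and Cry proteins shut this off, and the Nr1d receptors repress Bmal1 while Rora activates it. Of 18 tested members 7 rose and 5 fell, but 3 fell without RU PeF replicate 2 or RU UF replicate 2 and 2 without RU PeF replicate 3. The median of 0.22 became -0.24 with signals as deposited on the RU arrays alone. Of the repressors of Bmal1, Nr1d1 had 43.1, 61.9 and 56.9 in RU UF, against 11.8, 17.4 and 8.96 in RU PeF (log2 difference 1.87 ± 0.32, adjusted p = 0.000184), above background on 2 of 3 RU PeF arrays, and Nr1d2 rose likewise (log2 difference 1.61 ± 0.27, adjusted p = 0.000141). The opposing activator Rora also rose (log2 difference 2.87 ± 0.46, adjusted p = 8.04e-05). Bmal1 fell, with 21.7, 27.9 and 21.9 in RU UF, against 52.1, 52.8 and 65.3 in RU PeF (log2 difference -1.15 ± 0.35, adjusted p = 0.0148), and with an adjusted p of 0.0547 without RU PeF replicate 3. Its partners Clock (-0.45 ± 0.19, adjusted p = 0.0648; its other probe set 0.53) and Npas2 (-0.63 ± 0.25, adjusted p = 0.0544) were not called.

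Of the negative limb, Per2 had 154, 178 and 144 in RU UF, against 65.4, 57.6 and 40.8 in RU PeF (log2 difference 1.5 ± 0.27, adjusted p = 0.000219). Per3 was at background on all RU PeF arrays and at least 3.33-fold higher in RU UF, with 27.5, 23.9 and 22.3 there (adjusted p = 0.000762). Cry1 fell, with 99.8, 177 and 140.1 in RU UF, against 658, 611 and 662 in RU PeF (log2 difference -2.22 ± 0.21, adjusted p = 2.91e-07), whereas Cry2 was not called (log2 difference 0.53 ± 0.29, adjusted p = 0.166). The PAR-domain output factors Dbp (log2 difference 1.61 ± 0.35, adjusted p = 0.00129) and Tef (log2 difference 1.43 ± 0.33, adjusted p = 0.00213) rose, and Hlf was not called (log2 difference 0.72 ± 0.56, adjusted p = 0.336). Nfil3, which represses the sites those factors use, fell (log2 difference -0.89 ± 0.24, adjusted p = 0.00596). Bhlhe40 (DEC1), a repressor of E-box genes, had a log2 difference of -1.11 ± 0.42 (adjusted p = 0.043), and the call was lost without RU PeF replicate 2 or 3 or any 1 RU UF array (adjusted p 0.0652 to 0.142) and with the replicate number as a block (0.0562). The kinase Csnk1e had a log2 difference of -0.56 ± 0.20 (adjusted p = 0.0328), with its adjusted p at 0.0801 to 0.111 without RU PeF replicate 2 or 3 or RU UF replicate 2 or 3, 0.0676 under median scaling, and its other probe set at -2.46. For its relative Csnk1d the named probe set was not called (-0.10 ± 0.14), while 2 others fell, at -1.77 and -1.60.

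**Figure D2:**
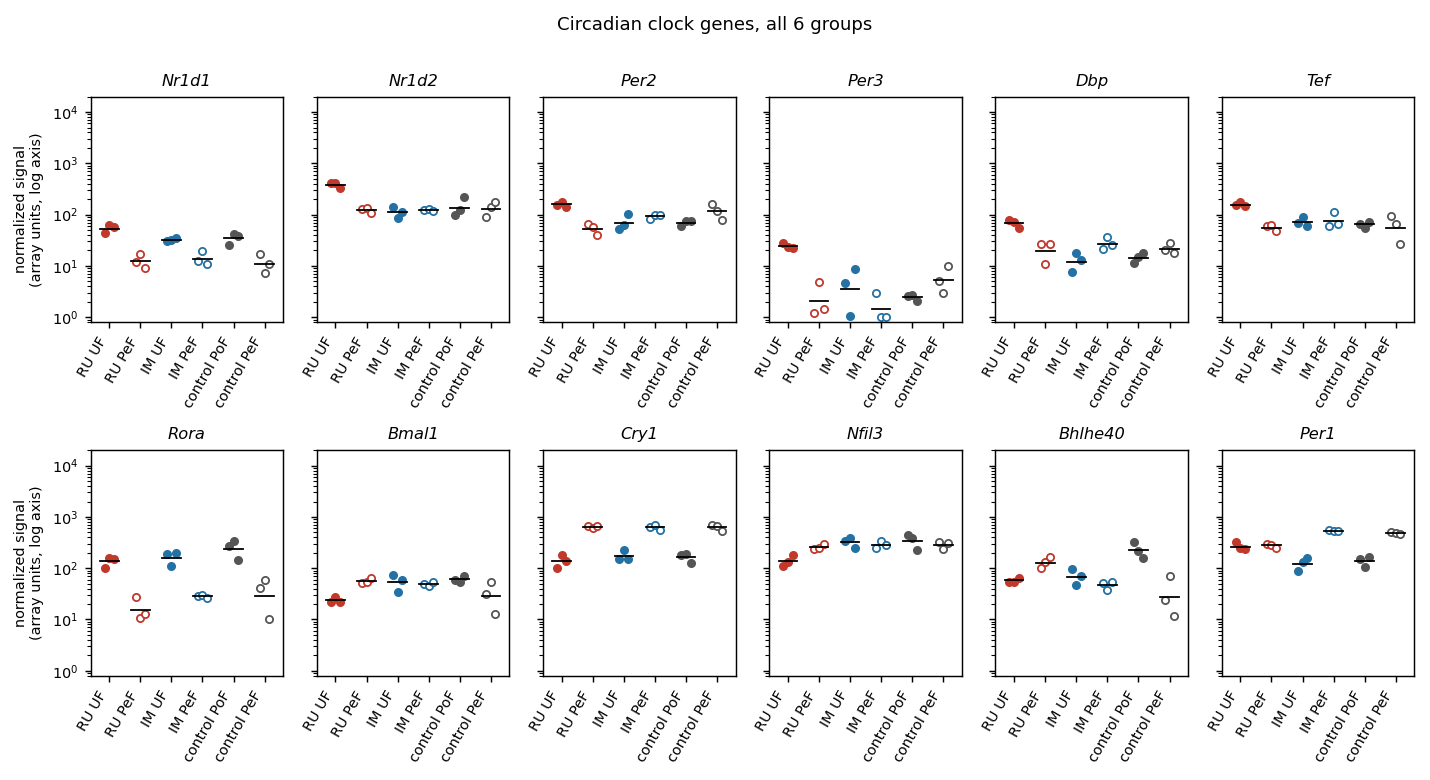
Quantile-normalized signal (log axis) of 12 clock genes on each array in the 6 groups, with the later time to the left of the earlier one within each treatment, and RU486 first, then indomethacin, then control. Points are arrays (n = 3 per group) and bars the means of their log2 signals. In the RU groups Nr1d1, Nr1d2, Per2, Per3, Dbp, Tef and Rora lie higher in UF, and Bmal1, Cry1 and Nfil3 lower.

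The start windows of 4 clock genes that carry the letters of known clock elements are shown. Of the 18 tested members 15 had a window, and 5 of these (Bhlhe40, Cry2, Nr1d1, Per2 and Tef) held CACGTG or CACGTT on either strand, letters found for 12% of 27457 genes. The half-site AGGTCA, bound by Nr1d and Ror receptors within a longer element, was in the windows of Bmal1 and Nr1d2 and in those of 16.9% of genes. Genes with the same letters differed in direction. Bhlhe40, which held CACGTG, was lower in RU UF, and Cry2 was not called. Nr1d2, which held AGGTCA, rose while Bmal1 fell. Capitals mark CACGTG in Nr1d1 (chr10:84229405-84229704, minus strand, 1 of its 2 windows) and in Tef (chr7:115206577-115206876, plus strand). They mark CACGTT in Per2 (chr9:99496944-99497243, minus strand) and AGGTCA in Bmal1 (chr1:176766078-176766377, plus strand). All were read from RefSeq on GRCr8, and nothing follows from these letters about binding in the follicle.
Nr1d1: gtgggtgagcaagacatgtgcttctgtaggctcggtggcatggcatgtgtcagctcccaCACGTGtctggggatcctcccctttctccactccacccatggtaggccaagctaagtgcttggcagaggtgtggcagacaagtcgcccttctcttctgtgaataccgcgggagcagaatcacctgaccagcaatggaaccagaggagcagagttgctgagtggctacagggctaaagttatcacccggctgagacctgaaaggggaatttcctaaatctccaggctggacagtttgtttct
Tef: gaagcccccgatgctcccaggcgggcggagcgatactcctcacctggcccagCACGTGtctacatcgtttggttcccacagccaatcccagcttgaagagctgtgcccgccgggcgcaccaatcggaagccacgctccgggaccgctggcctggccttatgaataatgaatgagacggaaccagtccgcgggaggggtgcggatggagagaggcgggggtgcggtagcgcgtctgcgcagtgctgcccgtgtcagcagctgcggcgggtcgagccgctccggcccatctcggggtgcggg
Per2: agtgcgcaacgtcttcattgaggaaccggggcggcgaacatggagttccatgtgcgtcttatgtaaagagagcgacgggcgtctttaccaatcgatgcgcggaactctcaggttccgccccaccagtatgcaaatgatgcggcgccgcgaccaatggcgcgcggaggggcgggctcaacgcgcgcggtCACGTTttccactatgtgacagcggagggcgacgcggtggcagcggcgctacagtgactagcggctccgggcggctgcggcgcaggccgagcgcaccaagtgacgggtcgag
Bmal1: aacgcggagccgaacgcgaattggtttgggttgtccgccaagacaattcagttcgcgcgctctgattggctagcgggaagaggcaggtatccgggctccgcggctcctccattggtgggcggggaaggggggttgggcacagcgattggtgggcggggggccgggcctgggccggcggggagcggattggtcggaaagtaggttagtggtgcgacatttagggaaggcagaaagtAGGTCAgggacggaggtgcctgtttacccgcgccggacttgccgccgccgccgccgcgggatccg

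Markers of the cell types a follicle section can hold differed in direction. Of 14 granulosa markers 6 rose and 4 fell. Those that fell included Inha, Inhba and Cyp19a1, with log2 differences of -1.37, -2.95 and, by its brightest probe set, -1.73. Foxl2, which maintains granulosa identity, had 2036, 1582 and 1538 in RU UF, against 263, 418 and 429 in RU PeF (log2 difference 2.23 ± 0.22, adjusted p = 4.69e-07). Nr5a1 (SF-1) rose by 1 probe set (log2 difference 2.27 ± 0.28, adjusted p = 4.92e-06), its other standing at 0.87 and not called. Theca and interstitial markers gave 5 higher and 2 lower of 11 (1 lower without RU PeF replicate 1 or 2 or RU UF replicate 2 or 3), with a median of 0.18 here, -0.01 under median scaling and -0.05 with deposited signals. The proteoglycans Lum (log2 difference 1.34 ± 0.19, adjusted p = 2.45e-05) and Dcn (log2 difference 1.12 ± 0.28, adjusted p = 0.00358) rose, whereas Hhip, a target and inhibitor of hedgehog signalling, was at background in RU UF and at least 4.83-fold lower there (adjusted p = 0.000126). Summed theca signals were 5031 to 7331 in RU UF and 3420 to 4883 in RU PeF.

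Smooth muscle and pericyte markers gave 7 higher and 2 lower of 15 (1 lower without RU PeF replicate 1 or 3 or RU UF replicate 2 or 3), with a median of 0.91 and summed signals of 903.1 to 1038 in RU UF, against 499.7 to 578.7 in RU PeF. Tagln, an actin-binding protein of smooth muscle, had 131, 245 and 162 in RU UF, against 51.9, 45.9 and 29.6 in RU PeF (log2 difference 1.99 ± 0.24, adjusted p = 4.61e-06). Mylk, the myosin light chain kinase (log2 difference 1.81 ± 0.21, adjusted p = 3.23e-06), and Myh11, the smooth muscle myosin heavy chain (log2 difference 1.51 ± 0.32, adjusted p = 0.00107), rose, and Des, the intermediate filament desmin, fell (log2 difference -1.03 ± 0.22, adjusted p = 0.00123). Ovarian surface epithelium markers gave 4 higher and none lower of 6 in limma, with 4 higher and 1 lower at an unadjusted p under 0.05 and 1 lower without RU UF replicate 3. The summed signals of the 11 such markers on the array, 2 of which were at background in both groups, were 353 to 551.2 in RU UF, against 167 to 174.4 in RU PeF. The 4 were Krt8 (log2 difference 1.23 ± 0.32, adjusted p = 0.00484), Upk1b (log2 difference 1.86 ± 0.39, adjusted p = 0.0011), Lrrn4 (log2 difference 1.46 ± 0.35, adjusted p = 0.00322) and Gpm6a (log2 difference 1.79 ± 0.49, adjusted p = 0.00744). Smooth muscle, surface epithelium and theca sums did not overlap between the groups and were higher in RU UF. The theca list shares members with the structural matrix list, among them Col1a1 and Lum, so those results are not independent. The part of these cell types in the rises of the structural matrix list was not tested.

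Endothelial markers gave 0 higher and 2 lower of 16 in limma, Kdr and Emcn, with 1 higher and 2 lower at an unadjusted p under 0.05. Without RU PeF replicate 2 or RU UF replicate 2 none was lower and without RU UF replicate 1 only 1, and 1 was higher without RU PeF replicate 1 or 3 or RU UF replicate 2 or 3. Emcn, the surface sialoprotein endomucin, had a log2 difference of -0.56 ± 0.17 (adjusted p = 0.0133), or with an adjusted p of 0.0516 to 0.0715 without RU PeF replicate 2 or RU UF replicate 1 or 2. The endothelial sums were 854.5 to 1194 in RU UF and 1127 to 1370 in RU PeF, which overlap. Of 14 leukocyte markers only Cd14, the lipopolysaccharide co-receptor, was called, with 61.3, 40.2 and 75.4 in RU UF, against 188, 329 and 219.6 in RU PeF (log2 difference -2.0 ± 0.33, adjusted p = 0.000117). Of 3 tested oocyte markers 1 was called, or 2 without RU PeF replicate 1. It was Gdf9, an oocyte growth factor, with 10.2, 13.6 and 1.98 in RU UF, against 41.1, 74.2 and 74.2 in RU PeF (log2 difference -2.63 ± 0.70, adjusted p = 0.00611). It was above background on 2 of 3 RU UF arrays. The oocyte sums, over 7 markers of which 3 were at background in both groups, were 32.22 to 48.12 in RU UF and 72.3 to 172.9 in RU PeF. Neither of 2 tested erythrocyte markers was called, and the sums over 6 on the array were 185.9 to 244.3 in RU UF and 357.9 to 704.2 in RU PeF.

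**Figure D3:**
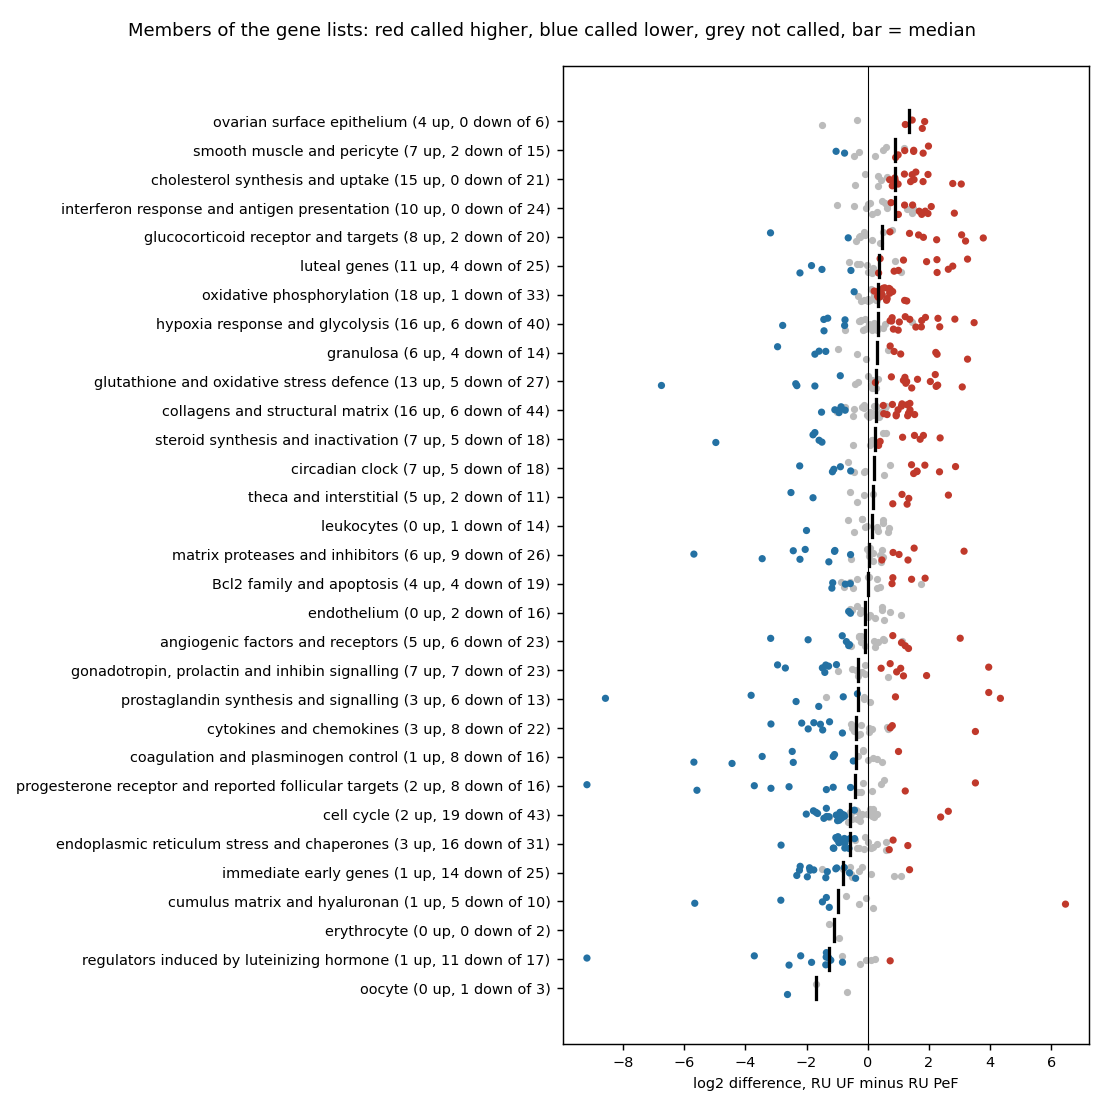
Log2 difference, RU UF minus RU PeF, of each tested member of the 31 gene lists, with red for members called higher in limma, blue for those called lower, gray for the others and a bar at the list's median. Cholesterol synthesis, interferon response and surface epithelium lie to the right of 0, and LH-induced regulators, cumulus matrix, immediate early genes and endoplasmic reticulum stress to the left.

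The largest rises by the naming rule also included Klhdc8a, a kelch-repeat protein, with 962, 1269 and 1029 in RU UF, against 18.2, 11.7 and 11.9 in RU PeF (log2 difference 6.01 ± 0.28, adjusted p = 2.46e-10). Wnt4, a ligand required for ovarian development in mice, had 309, 601 and 645 in RU UF, against 19.3, 9.08 and 1.54 in RU PeF, 2 of them above background (log2 difference 5.52 ± 0.46, adjusted p = 9.53e-08). Its relative Wnt2 was at background in RU UF, with 211, 209 and 285 in RU PeF, and at least 32.8-fold lower in RU UF (adjusted p = 1.43e-08). The 2 Wnt ligands thus moved in opposite directions. Scx (scleraxis), a transcription factor of tendon, had 129, 359 and 323 in RU UF, against 1.93, 6.68 and 2.18 in RU PeF, 1 of them above background (log2 difference 5.3 ± 0.40, adjusted p = 2.88e-08). Dhh, the hedgehog ligand that granulosa cells send to theca cells, had 531, 428 and 411 in RU UF, against 21.6, 16.4 and 4.49 in RU PeF, 2 of them above background (log2 difference 4.89 ± 0.41, adjusted p = 8.33e-08), opposite to the hedgehog target Hhip. Gamt, which completes creatine synthesis, rose (log2 difference 4.53 ± 0.47, adjusted p = 9.53e-07), as did the aldehyde dehydrogenase Aldh3b1 (log2 difference 4.39 ± 0.41, adjusted p = 2.75e-07), the sulfurtransferase Tst (log2 difference 4.34 ± 0.44, adjusted p = 7.33e-07), the glutathione transferase Gstt3 (log2 difference 4.33 ± 0.27, adjusted p = 4.44e-09), the bile acid binding protein Fabp6 (log2 difference 4.28 ± 0.37, adjusted p = 1.5e-07) and Ndrg2 (log2 difference 4.04 ± 0.42, adjusted p = 1.02e-06). Proser2, Tmem14a and Sh3tc2, for which no role is given here, rose by 5.47, 4.15 and 4.03 on the log2 scale, with adjusted p = 8.79e-12, 1.97e-07 and 1.84e-07.

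The other large falls included Sfmbt2, a Polycomb group protein, with 1.63, 5.99 and 6.64 in RU UF, 1 of them above background, against 418, 353 and 524 in RU PeF (log2 difference -5.84 ± 0.47, adjusted p = 5.83e-08). The atypical kinase Riok3 (log2 difference -5.52 ± 0.36, adjusted p = 7.16e-09), the adhesion receptor Adgrg6 (log2 difference -5.43 ± 0.47, adjusted p = 1.34e-07) and the granin Scg2, a precursor of secreted peptides (log2 difference -5.3 ± 0.44, adjusted p = 9.06e-08), fell too. So did Tchh (trichohyalin) (log2 difference -5.27 ± 0.43, adjusted p = 7.5e-08) and Hsf2bp, a protein of meiotic recombination (log2 difference -4.96 ± 0.62, adjusted p = 6.69e-06), each above background on 1 of 3 RU UF arrays. Stc1, the secreted glycoprotein stanniocalcin 1, had 14, 2.59 and 5.1 in RU UF, 1 of them above background, against 365, 216 and 109 in RU PeF (log2 difference -4.49 ± 0.46, adjusted p = 7.7e-07). Nt5e, the surface enzyme CD73 that makes adenosine from AMP, had 66.6, 58.2 and 64 in RU UF, against 667, 1260 and 1798 in RU PeF (log2 difference -4.13 ± 0.41, adjusted p = 5.51e-07). Gadd45b, a stress-induced gene, fell as well (log2 difference -3.0 ± 0.42, adjusted p = 2.18e-05). The groups were far apart for each of these genes.

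The change between the times was then set against that of indomethacin and of untreated follicles, which shares no sample with it. In limma 6069 probe sets (33.4%) were called in IM UF against IM PeF and 7196 (39.6%) in control PoF against control PeF. Per gene these shares were 37.9% with indomethacin (19.4% higher and 18.4% lower) and 44.2% in controls (24.5% higher and 19.7% lower). Of the RU486 calls, 4276 were called in the same direction with indomethacin (60.5% of the RU486 calls and 70.5% of the indomethacin calls) and 51 in the opposite one. In control follicles 4460 were called in the same direction (63.1% of the RU486 calls and 62% of the control calls) and 68 in the opposite one. Across the probe sets tested the log2 differences under RU486 correlated with those under indomethacin at 0.769 and with those of controls at 0.737. This describes 18155 probe sets, which are not independent, on arrays normalized together. The falls of Adcyap1 and Ptgs2 were called in all 3 courses. For Adcyap1 the log2 differences were -9.18 under RU486, -7.63 under indomethacin and -7.79 in controls. For Ptgs2 they were -8.58, -7.1 and -7.65 in the same order. Cemip rose by 6.47, 5.93 and 6.88. None of these 3 genes was called for a difference between courses.

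**Figure D4:**
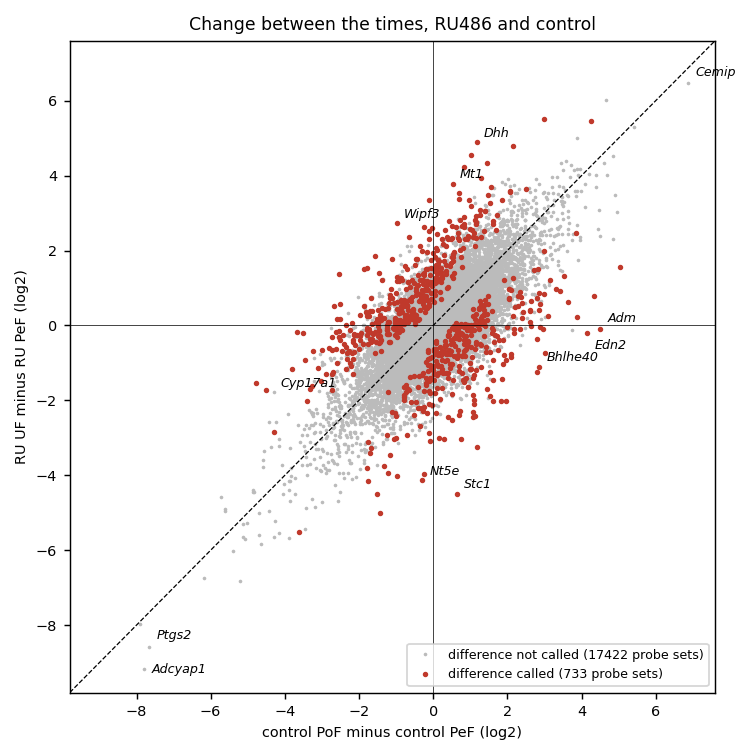
Log2 difference of each tested probe set in the control time course (control PoF minus control PeF, horizontal axis) and in the RU486 time course (RU UF minus RU PeF, vertical axis). Red points are the 733 probe sets called for a difference between the courses, gray points the rest, and most points lie along the diagonal.

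A difference between the courses was tested directly as an interaction, RU486 minus the other. Values in parentheses from here on are these differences between log2 differences, with their SE. Against controls 733 probe sets (4.04%) were called, 397 (2.19%) with a higher and 336 (1.85%) with a lower difference under RU486. This split depended on the scaling, with 70 higher and 279 lower under median scaling and 0 higher and 82 lower with signals as deposited. Against indomethacin 479 (2.64%) were called, 290 higher (1.6%) and 189 lower (1.04%), or 88 higher and 131 lower under median scaling and 0 with signals as deposited, where 326 had an unadjusted p under 0.05. Both differences use the same 6 RU arrays. Without any 1 RU UF array, RU PeF replicate 2 or 3 or control PoF replicate 2 or 3, 364 to 475 were called against controls. Against indomethacin the count was 281 without RU UF replicate 2 and 285 without RU PeF replicate 2. Per gene the shares were 4.47% against controls (2.28% higher and 2.19% lower) and 3.1% against indomethacin (1.88% higher and 1.22% lower). Of the named genes 57 probe sets were called against controls and 43 against indomethacin. Under median scaling all of these kept their direction, and 41 and 30 remained called. With signals as deposited 7 of those against controls turned round, Fkbp5, Hspd1, Hspe1, Lss, Nr1d2, Proser2 and Star, none of which was called under median scaling (adjusted p 0.151 to 0.307).

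Of the 40 hypoxia response genes tested, 9 were called lower against controls and 1 higher, beside 2.19% lower and 2.28% higher over all genes. Under RU486 16 rose and 6 fell, with a median of 0.33, and in control follicles 29 rose and 4 fell, with a median of 0.95. The indomethacin course lay near that of RU486, with 16 higher and 8 lower and a median of 0.41. Against indomethacin 2 members were called higher and 2 lower, beside 1.88% higher and 1.22% lower over all genes. Adm, the vasodilator peptide adrenomedullin, had 10.2, 11 and 9.6 in RU UF and 12.5, 10.9 and 10.4 in RU PeF, beside 317, 171 and 60.7 in control PoF and 3.9, 6.59 and 1.4 in control PeF (-4.61 ± 0.74, adjusted p = 0.00179). The control PeF arrays were all at background, so this difference has no measured size. Ndrg1, a hypoxia-induced gene, fell under RU486, with 35.8, 52.3 and 59.8 in RU UF and 137, 154 and 117 in RU PeF. In controls it had 596, 533 and 418 in PoF and 115, 117 and 194 in PeF (-3.29 ± 0.38, adjusted p = 0.000264). Its difference from indomethacin was smaller (-1.76 ± 0.38, adjusted p = 0.0172), and the call was lost without RU UF replicate 1 or RU PeF replicate 2 (adjusted p 0.0528 to 0.0564). Stc1 had the largest lower difference named against controls (-5.13 ± 0.65, adjusted p = 0.000371) and was also lower against indomethacin (-3.6 ± 0.65, adjusted p = 0.00487). Hmox1, heme oxygenase, was not called under RU486 (log2 difference 0.19 ± 0.22, adjusted p = 0.53) but differed from controls (-2.21 ± 0.31, adjusted p = 0.000804). Egln3, a prolyl hydroxylase that marks hypoxia-inducible factors for degradation, was above background on 1 of the 6 RU arrays and differed from controls (-3.76 ± 0.70, adjusted p = 0.00525), whose PeF arrays were all at background, and has no measured size. Bhlhe40, which is a hypoxia-induced gene as well as a clock gene, differed likewise (-3.97 ± 0.59, adjusted p = 0.00106).

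Some genes were called lower against each of the other courses, in comparisons that share the RU arrays. Edn2 had 82.6, 65.9 and 117 in RU UF and 92.1, 174 and 61.7 in RU PeF, beside 447, 549 and 223 in IM UF and 28.5, 44.3 and 19.4 in IM PeF (-3.78 ± 0.68, adjusted p = 0.00496). In controls it had 897, 503 and 238 in PoF and 12.9, 24.4 and 40.7 in PeF (-4.37 ± 0.68, adjusted p = 0.0015). Both other courses thus ended with Edn2 higher than they began, which the RU486 course did not. Nt5e fell further under RU486 than with indomethacin (-3.85 ± 0.58, adjusted p = 0.00111) or in controls (-3.82 ± 0.58, adjusted p = 0.00118), where its log2 differences were -0.27 and -0.30. Inhbb had a log2 difference of 0.74 under RU486, less than the 3.01 with indomethacin and the 2.79 in controls (-2.27 and -2.05). Gadd45b (-3.51 and -3.16), Serpine2 (-2.19 and -2.29) and Timp1 (-1.62 and -1.82) were lower against both. These calls of Edn2, Nt5e, Inhbb, Gadd45b, Serpine2 and Timp1 held without any 1 array.

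**Figure D5:**
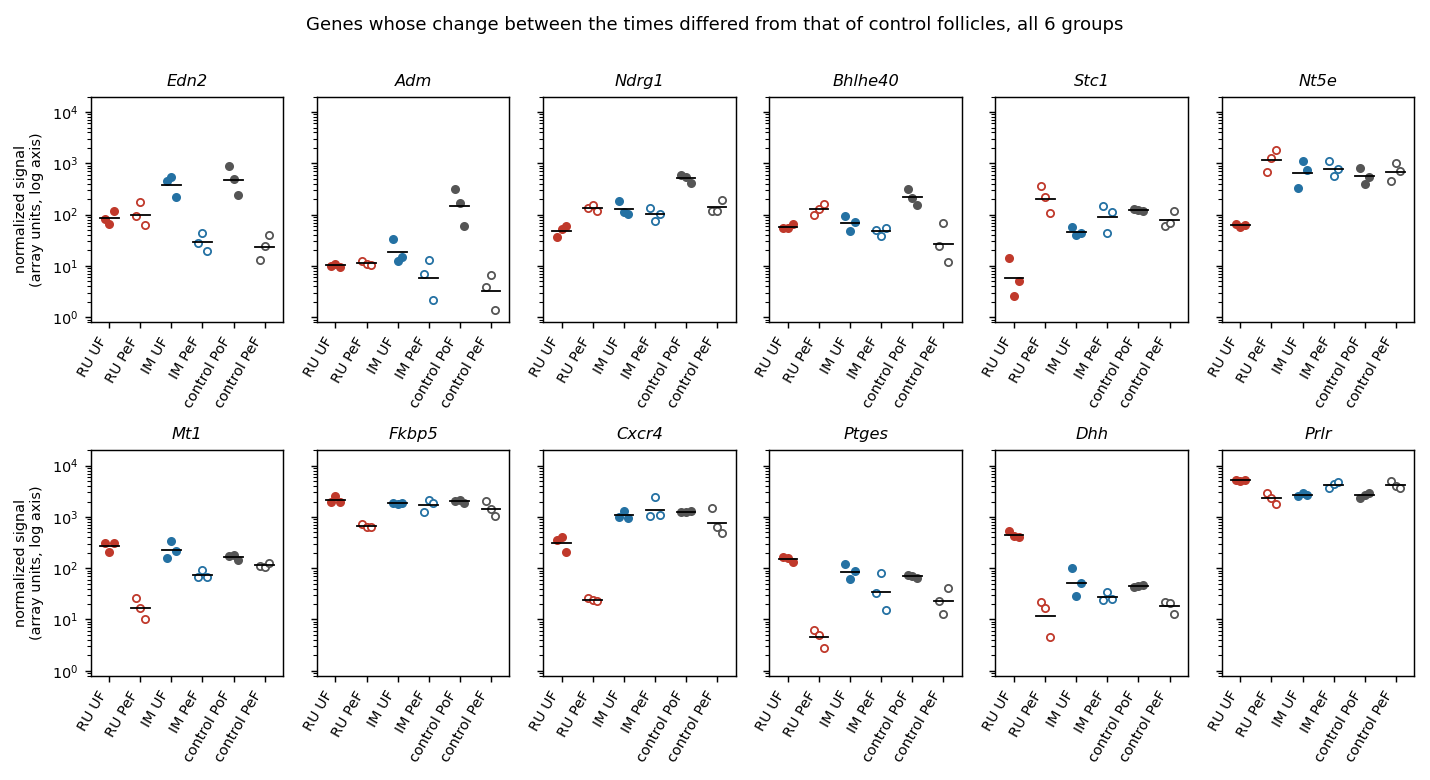
Quantile-normalized signal (log axis) of 12 genes called for a difference between time courses, on each array in the 6 groups, with the later time to the left of the earlier one and RU486 first, then indomethacin, then control. Points are arrays (n = 3 per group) and bars the means of their log2 signals. Edn2 and Adm end high in control PoF but not in RU UF, and Mt1, Cxcr4 and Dhh rise under RU486 by more than they change in the other courses.

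Higher differences included the glucocorticoid receptor list, in which 7 of 20 members were called higher against controls and 7 against indomethacin, with 0 lower in limma in both. Over all genes 2.28% were higher against controls and 1.88% against indomethacin. At an unadjusted p under 0.05, 9 were higher and 2 lower against controls, and 11 higher and 1 lower against indomethacin. The median of the list was 0.46 under RU486, -0.19 under indomethacin and -0.08 in controls. Mt1 had 158, 338 and 220.3 in IM UF and 66.2, 92.2 and 67.1 in IM PeF (2.21 ± 0.40, adjusted p = 0.0053). It had 174, 184 and 147 in control PoF and 109.6, 108 and 129 in control PeF (3.25 ± 0.40, adjusted p = 0.000305). Klf9 was at -0.12 under RU486, -1.57 with indomethacin (1.45 ± 0.25, adjusted p = 0.00389) and -1.79 in controls (1.67 ± 0.25, adjusted p = 0.00124). Klf15 was at 0.73 under RU486, -1.84 with indomethacin (2.57 ± 0.31, adjusted p = 0.000266) and -1.69 in controls (2.42 ± 0.31, adjusted p = 0.000423). For Fkbp5 the difference from indomethacin held without any 1 array (1.54 ± 0.29, adjusted p = 0.00656) but not under median scaling (adjusted p = 0.149). The call against controls (1.18 ± 0.29, adjusted p = 0.0281) was lost without RU UF replicate 2, RU PeF replicate 2 or 3 or control PoF replicate 1, 2 or 3 (adjusted p 0.0554 to 0.0781) and under median scaling (0.307), and the value turned to -0.44 with signals as deposited. The call of Mt2A was lost under median scaling against controls (limma adjusted p = 0.067) and against indomethacin (0.0833). So was that of Per1 against controls (0.102). A difference between courses can lie at either time. For Mt1 the mean log2 signal was 8.10 in RU UF, 7.85 in IM UF and 7.41 in control PoF, and at the earlier time 4.32 in RU PeF, 6.27 in IM PeF and 6.88 in control PeF, so the groups lay further apart at the earlier time.

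Clock genes also differed between the courses, 5 higher and 2 lower against controls, and 5 higher and 0 lower against indomethacin in limma. The shares over all genes were 2.28% higher and 2.19% lower against controls, and 1.88% higher and 1.22% lower against indomethacin. At an unadjusted p under 0.05, 7 were higher and 3 lower against indomethacin. Per2 rose by 1.5 under RU486 and stood at -0.39 with indomethacin (1.89 ± 0.38, adjusted p = 0.0099) and -0.71 in controls (2.21 ± 0.38, adjusted p = 0.0027). Per1 was at -0.08 under RU486, -2.1 with indomethacin (2.02 ± 0.28, adjusted p = 0.000517) and -1.79 in controls (1.71 ± 0.28, adjusted p = 0.00185). Under median scaling the adjusted p of the differences of Per2 was 0.0995 against indomethacin and 0.0628 against controls, and that of Per1 against controls 0.102. Dbp differed from indomethacin (2.61 ± 0.49, adjusted p = 0.0066), and the call of its difference from controls (2.11 ± 0.49, adjusted p = 0.0217) was lost without RU UF replicate 1 or 2, RU PeF replicate 2 or control PoF replicate 1 or 2 (adjusted p 0.0528 to 0.0595). The call of Bmal1 against controls (-2.18 ± 0.50, adjusted p = 0.0196) was lost without RU PeF replicate 3 or control PoF replicate 3 (adjusted p 0.0541). Cry1, Rora and Nr1d1 moved in the same direction in all 3 courses, with Cry1 at -2.22 under RU486, -1.85 under indomethacin and -1.94 in controls.

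Cxcr4 had a higher change under RU486 than with indomethacin (3.89 ± 0.50, adjusted p = 0.000341) or in controls (2.83 ± 0.50, adjusted p = 0.0035). The first of these exceeds its log2 difference of 3.52 under RU486, so Cxcr4 did not rise with indomethacin. Dhh was also higher against indomethacin (4.0 ± 0.57, adjusted p = 0.000769) and controls (3.72 ± 0.57, adjusted p = 0.00137), and so was Ptges against indomethacin (3.1 ± 0.62, adjusted p = 0.0105) and controls (2.89 ± 0.62, adjusted p = 0.0133). Prlr, by the named probe set, was at -0.65 with indomethacin and -0.67 in controls, opposite to its rise under RU486, and was called against indomethacin (1.82 ± 0.22, adjusted p = 0.000233) and controls (1.84 ± 0.22, adjusted p = 0.000264). Wipf3, of a family that binds the actin regulator WASP, rose under RU486 (log2 difference 2.72 ± 0.38, adjusted p = 1.96e-05) and was at -1.37 with indomethacin (4.09 ± 0.53, adjusted p = 0.000383) and -0.98 in controls (3.7 ± 0.53, adjusted p = 0.000868). Sema3d, a guidance ligand, was at background in RU PeF and at least 12-fold higher in RU UF, and differed from both indomethacin (3.18 ± 0.68, adjusted p = 0.0158) and controls (3.47 ± 0.68, adjusted p = 0.00752). In cholesterol synthesis, Hsd17b7 differed from controls (2.35 ± 0.39, adjusted p = 0.00196), at 2.78 under RU486 and 0.43 there, but was not called against indomethacin.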

How the data were processed

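Expression was measured on 18 single-channel Affymetrix arrays, 3 for each of 6 groups, from laser-microdissected follicle sections. The authors deposited linear signal intensity per probe set, and the submitters' processing notes name MAS5. Further steps are not named. Deposited intensities had medians that differed between arrays, and 3 arrays, 1 each of control PeF, IM PeF and IM UF, had a median under 12. The number of arrays limits the precision, and sequencing depth does not apply.

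The 57 control probe sets were left out. The arrays were quantile-normalized over all 31042 others, and log2(signal + 3.09) was taken, the pseudocount being the 20th percentile of all values, so fold changes of dim genes are understated. A probe set was tested if at least 3 of the 18 arrays had it above that array's median (18155). Of the other 12887, 4119 were at background in both RU groups. A model with 6 group means was fitted to all 18 arrays with limma 3.58.1 (R 4.3.3; eBayes with a trend, 12 residual degrees of freedom), so that the groups share 1 estimate of the spread. P-values were adjusted by Benjamini-Hochberg and called under 0.05. Differences between time courses were contrasts of that fit. With 3 samples a side, exact permutation allows no p under 0.1 and was not used. The code was tested on simulated data. Figures were drawn with matplotlib 3.10.9 (Python 3.11.15).

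Gene symbols came from GEO's platform annotation, updated through gene IDs: 20826 probe sets had 1 symbol, 436 several and 9780 none. Each listed gene was represented by the probe set with the highest mean signal, and the text gives others where their direction or call differs. A probe set at or below the highest unspiked control of its array on all 3 arrays of a group has only a bound there, "at least N-fold": the other group's mean against that control's level or the probe set's own, whichever is higher.

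The members and the gene lists were chosen with earlier results of these data known, and no list was tested as a set. Most genes were named by rule: the 15 largest called rises and falls that do not overlap, up to 4 called members of each list by adjusted p, a list of genes known in ovulation, the whole clock list, and the largest differences between courses, 10 per direction against controls and 5 against indomethacin. Others were added after their values were seen, namely Cdk1, F3, Fkbp5, Hmox1, Hpgd, Inhba, Inhbb, Klf9, Klf15, Mmp11, Ndrg1, Plat, Stard4 and Tgfb1. They are included in the counts of named genes. Promoter windows came from RefSeq on GRCr8. Alternatives varied the scaling, the pseudocount, the filter, the arrays fitted, array weights and the replicate number as a block.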

Additional observations from a re-analysis of the deposited data

Results flagged for a closer look

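The 100 values below were singled out because limma's test of the difference between the RU486 time course and another one was called for a named gene, 57 against controls and 43 against indomethacin. Each value is the log2 difference RU UF minus RU PeF, minus the same for IM UF and IM PeF or for control PoF and control PeF. Of 18155 probe sets tested, 4.04% were called against controls and 2.64% against indomethacin.

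Among glucocorticoid receptor targets and metallothioneins, the RU486 course was higher against controls for Fkbp5 at 1.18, Klf9 at 1.67, Klf15 at 2.42, Mt1 at 3.25, Mt2A at 1.82 and Per1 at 1.71. It was higher against indomethacin for Fkbp5 at 1.54, Klf9 at 1.45, Klf15 at 2.57, Mt1 at 2.21, Mt2A at 1.69 and Per1 at 2.02.

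Among clock genes, the RU486 course was higher against controls for Dbp at 2.11, Nr1d2 at 1.54, Per2 at 2.21 and Per3 at 3.0. Against controls a lower value was held by Bhlhe40 at -3.97 and Bmal1 at -2.18. It was higher against indomethacin for Cry2 at 1.99, Dbp at 2.61, Nr1d2 at 1.76 and Per2 at 1.89.

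Among hypoxia-induced genes, the RU486 course was lower against controls for Adm at -4.61, Egln3 at -3.76, Hmox1 at -2.21, Ndrg1 at -3.29 and Stc1 at -5.13. Against indomethacin a lower value was held by Ndrg1 at -1.76 and Stc1 at -3.6.

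Among genes of steroid and cholesterol handling, the RU486 course was higher against controls for the brightest probe set of Cyp19a1 at 2.78, its second named probe set at 3.5, Hsd17b7 at 2.35, Lss at 1.41, Star at 1.05, Stard4 at 1.7 and Tm7sf2 at 1.68. Against controls a lower value was held by Akr1c14 at -3.57. It was higher against indomethacin for Lss at 1.81, Nr5a2 at 1.96, Star at 0.88, Tm7sf2 at 1.17 and Tspo at 1.3.

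Among ligands, receptors and prostaglandin enzymes, the RU486 course was higher against controls for Cxcr4 at 2.83, Dhh at 3.72, Prlr at 1.84, Ptges at 2.89, Sema3d at 3.47 and Wnt4 at 2.53. Against controls a lower value was held by Cd14 at -3.1, Edn2 at -4.37, Hpgd at -2.18 and Inhbb at -2.05. It was higher against indomethacin for Cxcr4 at 3.89, Dhh at 4.0, Prlr at 1.82, Ptges at 3.1 and Sema3d at 3.18. Against indomethacin a lower value was held by Edn2 at -3.78, Hpgd at -1.82, Inhbb at -2.27, Tnfrsf12a at -1.31 and Wnt2 at -2.16.

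Among genes of matrix, coagulation and the cytoskeleton, the RU486 course was higher against controls for F3 at 1.98, Myh11 at 1.7, Vcan at 1.45 and Wipf3 at 3.7. Against controls a lower value was held by Plat at -2.83, Serpine2 at -2.29 and Timp1 at -1.82. It was higher against indomethacin for Col1a1 at 0.86, F3 at 2.5, Vcan at 1.45 and Wipf3 at 4.09. Against indomethacin a lower value was held by Acta1 at -3.62, Serpine2 at -2.19 and Timp1 at -1.62.

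Among stress, cell cycle and other genes, the RU486 course was higher against controls for Aard at 3.92, Fam107a at 3.3, Hspd1 at 0.81, Hspe1 at 0.50, Proser2 at 1.2 and Susd3 at 3.42. Against controls a lower value was held by Aldh1a3 at -4.04, Bcl11a at -3.84, Cdk1 at -1.21, Gadd45b at -3.16, Hsp90b1 at -0.77, Nt5e at -3.82, Rab7b at -3.63, Riok3 at -1.91 and Tmem139 at -3.98. It was higher against indomethacin for Aard at 4.12, Fam107a at 2.98, Gstt3 at 1.96 and Susd3 at 4.15. Against indomethacin a lower value was held by Gadd45b at -3.51, Nt5e at -3.85, Rab7b at -2.6, Runx1 at -1.36 and Tmem139 at -3.47.

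Where a probe set was at background on all 3 arrays of a group, its value has no measured fold. This held in RU UF for Bcl11a, Egln3, Fam107a and Wnt2; in RU PeF for Per3, Ptges and Sema3d; in IM UF for Fam107a; in IM PeF for Sema3d; in control PoF for Per3; in control PeF for Adm, Aldh1a3, Egln3 and Per3. With signals as deposited the value against controls turned to -0.44 for Fkbp5, -0.41 for Hspd1, -0.59 for Hspe1, -0.19 for Lss, -0.05 for Nr1d2, -0.19 for Proser2 and -0.42 for Star, and none of these was called in that setting or under median scaling.

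For each call that was lost, the highest adjusted p is given with the array whose removal gave it, and the number of arrays whose removal lost the call. Against controls, 34 of the 57 calls held without any 1 of the 12 arrays of the comparison and 20 did not, while those of Egln3, Per3 and Sema3d held in the 9 of these fits in which the gene was tested, and no direction turned. Without RU PeF replicate 1, the adjusted p reached 0.0937 for Myh11 (lost for 9 arrays). Without RU PeF replicate 3, the adjusted p reached 0.0509 for F3 (lost for 1 array), 0.0728 for Mt2A (lost for 6 arrays) and 0.115 for Susd3 (lost for 10 arrays). Without RU UF replicate 1, the adjusted p reached 0.0841 for Aard (lost for 8 arrays), 0.0799 for Cyp19a1, brightest probe set (lost for 8 arrays), 0.092 for Cyp19a1, second named probe set (lost for 8 arrays), 0.0595 for Dbp (lost for 5 arrays) and 0.117 for Riok3 (lost for 9 arrays). Without RU UF replicate 2, the adjusted p reached 0.0782 for Fkbp5 (lost for 6 arrays). Without RU UF replicate 3, the adjusted p reached 0.07 for Hspe1 (lost for 5 arrays) and 0.0983 for Wnt4 (lost for 8 arrays). Without control PoF replicate 2, the adjusted p reached 0.0983 for Cdk1 (lost for 10 arrays), 0.0638 for Hsp90b1 (lost for 5 arrays), 0.0658 for Lss (lost for 5 arrays), 0.0831 for Nr1d2 (lost for 7 arrays) and 0.0683 for Proser2 (lost for 4 arrays). Without control PoF replicate 3, the adjusted p reached 0.107 for Aldh1a3 (lost for 9 arrays), 0.0541 for Bmal1 (lost for 2 arrays) and 0.057 for Stard4 (lost for 3 arrays).

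Against indomethacin, 25 of the 43 calls held without any 1 of the 12 arrays of the comparison and 17 did not, while the call of Sema3d held in the 9 of these fits in which the gene was tested, and no direction turned. Without IM UF replicate 1, the adjusted p reached 0.0537 for Susd3 (lost for 3 arrays). Without IM UF replicate 2, the adjusted p reached 0.125 for Mt2A (lost for 9 arrays), 0.106 for Tnfrsf12a (lost for 10 arrays) and 0.11 for Tspo (lost for 9 arrays). Without IM UF replicate 3, the adjusted p reached 0.0775 for Fam107a (lost for 8 arrays). Without RU PeF replicate 2, the adjusted p reached 0.125 for Col1a1 (lost for 11 arrays), 0.0564 for Ndrg1 (lost for 2 arrays), 0.113 for Nr5a2 (lost for 9 arrays), 0.059 for Rab7b (lost for 2 arrays) and 0.102 for Runx1 (lost for 7 arrays). Without RU UF replicate 1, the adjusted p reached 0.0857 for Aard (lost for 6 arrays). Without RU UF replicate 2, the adjusted p reached 0.0581 for Acta1 (lost for 3 arrays), 0.0896 for Hpgd (lost for 10 arrays), 0.0511 for Nr1d2 (lost for 2 arrays), 0.0713 for Star (lost for 4 arrays), 0.0964 for Tm7sf2 (lost for 7 arrays) and 0.0865 for Wnt2 (lost for 8 arrays).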

How the results depend on the processing

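Of the 158 named probe sets called between RU UF and RU PeF, 158 kept their direction and 78 also their call in every setting in which they were tested, which for 155 was all 17. The count of 7068 calls became 1038 with signals as deposited, where all 18 arrays share 1 estimate of the spread, and 66 of 571 list members were then called instead of 309. Signals as deposited on the RU arrays alone, a setting chosen after seeing the data, gave 8156 calls, of which 39.8% were higher, against 48.9%; the median over genes was then -0.15. Other settings gave 5851 calls under median scaling, 9183 with array weights, 9181 without the 3 dim arrays, 8383 with the RU arrays alone and 5840 to 6033 when 1 RU array was left out. The 733 differences from the control course became 82 with signals as deposited, 349 under median scaling, 2463 with array weights, 1691 without the dim arrays and 364 to 935 when 1 array was left out. The 479 differences from the indomethacin course became 0 (326 at an unadjusted p under 0.05, limma), 219, 2070, 731 and 281 to 552 in the same settings. The cause was not tested, other than that fewer arrays were fitted in some.

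The replicate numbers did not pair the samples: deviations of same-numbered RU UF and RU PeF arrays correlated at -0.00, -0.05 and 0.03, none above 0.1. With the replicate number as a block, 6832 probe sets were called between the RU groups, 605 against controls and 395 against indomethacin, and 301 of the list members. Among the named calls between the RU groups it ended that of Bhlhe40 and no other. Among the named differences between courses it ended those of Cdk1, Riok3 and Susd3 against controls (adjusted p 0.0591, 0.0664 and 0.0667) and of Mt2A, Nr5a2, Runx1, Tnfrsf12a and Tspo against indomethacin (0.0706, 0.063, 0.0585, 0.0644 and 0.0701).

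Values that turned round were those of 5 probe sets that were not called. Leaving out 1 RU array gave -0.67 to 0.36 for the second named probe set of Cyp19a1 and -0.21 to 0.013 for Per1, positive without RU UF replicate 3. It gave -0.22 to 0.038 for Klf9 (positive without RU PeF replicate 1), -0.54 to 0.18 for Edn2 (without RU PeF replicate 2) and -0.42 to 0.089 for Fam107a (without RU PeF replicate 3). Signals near background, such as those of Ptges in RU PeF, limit what can be said of their fold changes.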

Other observations

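Further named genes differed between courses. Aard had 52, 18.8 and 12.1 in RU UF, against 15.3, 10.9 and 1 in RU PeF (log2 difference 1.38 ± 0.69, adjusted p = 0.126), with overlapping groups, and was at -2.74 with indomethacin and -2.55 in controls. Susd3 had 48.6, 27 and 55.5 in RU UF, against 22.3, 12.9 and 1.69 in RU PeF (log2 difference 1.85 ± 0.65, adjusted p = 0.0312), and its adjusted p was 0.186 without RU PeF replicate 3, 0.0849 without RU UF replicate 1 and 0.0972 without RU UF replicate 3. Fam107a had 4.55, 5.57 and 5.72 in RU UF, against 4.21, 5.36 and 11.7 in RU PeF, with 1 of these 6 arrays above background, while it was at -3.2 with indomethacin and -3.52 in controls.

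Aldh1a3, an enzyme of retinoic acid synthesis, had 52.7, 2.95 and 59.1 in RU UF, against 58.8, 66.5 and 61.2 in RU PeF (log2 difference -1.24 ± 0.78, adjusted p = 0.223), and was at 2.8 in controls, whose PeF arrays were all at background. Tmem139 had 11.2, 7.34 and 13.2 in RU UF, against 59.4, 67.1 and 33 in RU PeF (log2 difference -2.01 ± 0.48, adjusted p = 0.00282), with differences of 1.46 with indomethacin and 1.97 in controls. Rab7b, a small GTPase of late endosomes, also fell under RU486 (log2 difference -2.02 ± 0.40, adjusted p = 0.000595), with differences of 0.58 with indomethacin and 1.61 in controls. Bcl11a, a zinc finger transcription factor, was at background in RU UF and at least 2.49-fold lower than in RU PeF by the named probe set, while its other probe set, at -0.78, was not called. Acta1, skeletal muscle actin, had 7.95, 1 and 1.62 in RU UF, against 11.9, 11.1 and 6.34 in RU PeF (log2 difference -1.08 ± 0.56, adjusted p = 0.142), and 58.3, 41.5 and 35.3 in IM UF, against 1.11, 6.49 and 10.2 in IM PeF.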
